A study of Mus musculus with 12 samples.

Results

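Growth-arrest and stress genes of the Gadd45 group were followed in the cortex of 12 mice. The set held 8 genes, Gadd45a, Gadd45b, Gadd45g, Cdkn1a, Btg1, Btg2, Ier2 and Ppp1r15a, taken by symbol from the 17202 genes of the deposited table. They were chosen by their normalized counts across the 4 groups, known from earlier results of the same mice, so their levels and differences are given as a description. Where the fit across all genes put one of them past its limits, that is stated as a count and is no evidence about the set.

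Williams–Beuren syndrome is caused by a heterozygous deletion, and CD (complete deletion) mice carry the corresponding deletion, from Gtf2i to Fkbp6, on 1 copy of the chromosome. Frontal cortex was taken from WT and CD mice on a mostly C57BL/6J background, 3 in each of 4 groups, at 16 weeks of age by the labels. VEH-WT and VEH-CD mice drank water with DMSO, and the labels call them untreated. VERCUR-WT and VERCUR-CD mice received curcumin at 60 mg/kg/day and verapamil, a calcium channel blocker, at 10 mg/kg/day for 1 month from 8 weeks of age. These are the doses and times of the labels, and the study's methods give a lower dose of verapamil and an earlier end. The methods describe male mice that stayed on treatment through the behavioral tests until they were killed. The CD line had been crossed with Thy1-YFP mice, whose transgene labels pyramidal neurons, and no source used here states whether the sequenced mice carried it.

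Most proteins of this set slow or stop the cell cycle, or switch off a stress signal, after damage, stress or a strong stimulus. GADD45 proteins bind PCNA and the kinase MAP3K4 and take part in DNA repair and active DNA demethylation, and p21, the product of Cdkn1a, inhibits cyclin-dependent kinases. In neurons, which do not divide, several of these genes are known as immediate early or activity-induced genes, whose mRNA appears soon after synaptic activity and is lost quickly.

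The 250 bases before the RefSeq transcription start were available for 7 of the 8 genes (RefSeq, GRCm38.p6). Of these, 5 windows are shown, for Gadd45a, Cdkn1a, Gadd45b, Gadd45g and Btg2. Capitals mark matches, on either strand, to the cAMP response element (CRE) TGACGTCA, the TATA box TATAAA, the CCAAT box, the E-box motif CACGTG, the octamer ATGCAAAT, and the p53 half-site and CArG box, which need ambiguous letters. The motifs were chosen after the sequences had been seen, and no matches overlapped each other. Gadd45a is given without the 50 bases nearest to the start, which lie inside the annotated gene. The last bases of the Gadd45b and Cdkn1a windows also lie inside the annotated genes, which start at 80930073 and 29090976.
Gadd45a, chr6:67037458-67037657, minus strand: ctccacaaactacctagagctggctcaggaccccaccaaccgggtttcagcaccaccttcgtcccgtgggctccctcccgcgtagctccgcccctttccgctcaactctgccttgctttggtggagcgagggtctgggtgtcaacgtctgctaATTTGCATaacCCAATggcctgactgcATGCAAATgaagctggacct
Cdkn1a, chr17:29090729-29090978, plus strand: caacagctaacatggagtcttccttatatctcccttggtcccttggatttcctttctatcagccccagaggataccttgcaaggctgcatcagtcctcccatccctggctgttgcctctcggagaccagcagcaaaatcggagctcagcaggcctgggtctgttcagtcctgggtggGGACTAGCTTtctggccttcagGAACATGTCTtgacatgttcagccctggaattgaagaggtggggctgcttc
Gadd45b, chr10:80929841-80930090, plus strand: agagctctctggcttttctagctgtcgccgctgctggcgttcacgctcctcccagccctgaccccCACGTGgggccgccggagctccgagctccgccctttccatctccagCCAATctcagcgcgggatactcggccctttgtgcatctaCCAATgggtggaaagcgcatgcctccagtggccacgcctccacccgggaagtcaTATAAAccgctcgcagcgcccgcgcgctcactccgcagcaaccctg
Gadd45g, chr13:51846425-51846674, plus strand: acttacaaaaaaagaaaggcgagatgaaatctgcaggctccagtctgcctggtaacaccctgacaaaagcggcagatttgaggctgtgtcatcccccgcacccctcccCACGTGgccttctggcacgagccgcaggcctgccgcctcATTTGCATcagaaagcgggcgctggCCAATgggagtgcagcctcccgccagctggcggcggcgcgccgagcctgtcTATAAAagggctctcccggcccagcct
Btg2, chr1:134079156-134079405, minus strand: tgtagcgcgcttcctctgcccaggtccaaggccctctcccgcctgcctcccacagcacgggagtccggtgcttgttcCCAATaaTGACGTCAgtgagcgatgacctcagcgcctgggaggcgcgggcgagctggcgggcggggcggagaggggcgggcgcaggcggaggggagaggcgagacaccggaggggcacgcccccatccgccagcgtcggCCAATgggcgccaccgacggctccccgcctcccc

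Positions are counted back from the start, with -1 the last base before it. In Cdkn1a, a known target gene of p53, both capital stretches are p53 half-sites, from -73 to -64 and from -51 to -42. Gadd45a held another, from -40 to -31, in the stretch not printed, and 7.13% of the 32851 mouse promoter windows held at least 1. Its capitals are the octamer at -97 to -90 and at -70 to -63, on opposite strands, with CCAAT between them. Gadd45g held the octamer at -103 to -96, and 1.6% of all windows held this motif. Gadd45b and Gadd45g shared a layout of an E-box, CCAAT and TATAAA in that order towards the start. TATAAA began at -46 in Gadd45b and at -27 in Gadd45g, and 12.4% of all windows held it. The RefSeq start of Gadd45b lies inside the annotated gene, so the gap between these positions depends on the start used. An E-box was found in 6.02% of windows and CCAAT in 33.8%. The CRE of Btg2 ran from -166 to -159, and Ppp1r15a held a CRE from -12 to -5, with 1.55% of all windows holding 1. Btg1 held TATAAA and CCAAT, and a second, downstream window of Cdkn1a held none of these letters. The CArG box, found in 1.47% of all windows, was in no window of the set. A match is a run of letters and not a measured binding site.

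**Figure D1:**
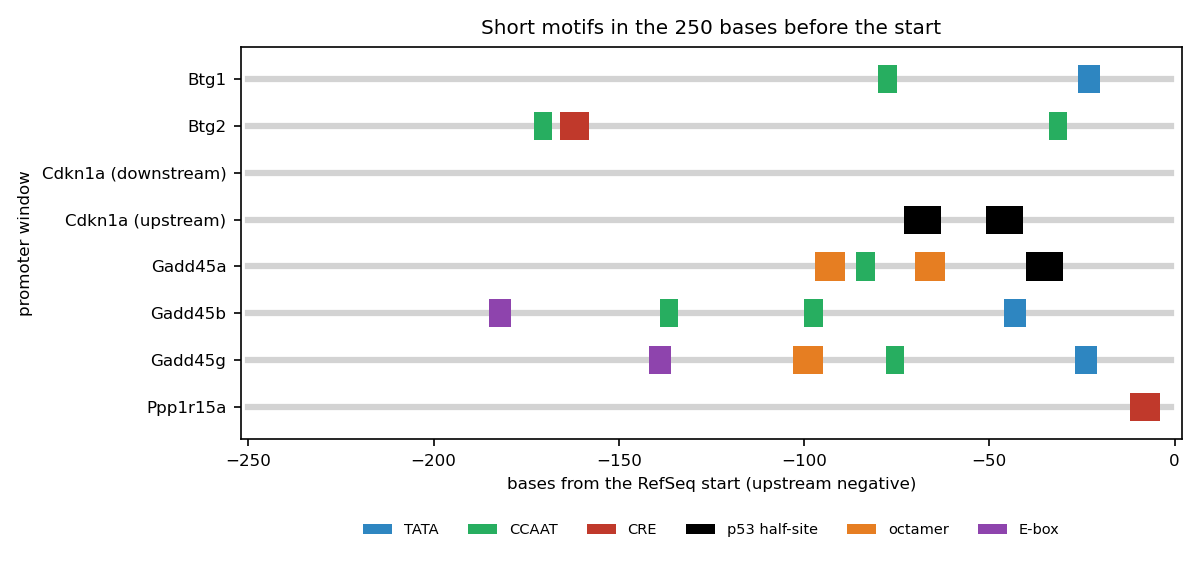
Short motifs in the 250 bases before each RefSeq start, with the distance from the start in bases on the horizontal axis and a row for each promoter window. Coloured blocks are matches on either strand, and the E-box, CCAAT and TATA blocks of Gadd45b and Gadd45g follow each other in the same order.

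The study counted 40290000 to 56480000 reads per mouse, inferred from the steps between low values, and deposited normalized counts, which are reads per gene divided by a factor for each sample. Between mice of a group, log2 levels correlated across genes with r from 0.986 to 0.994. The 19 genes of the deleted region had medians of 0.959 to 1.04 times VEH-WT in WT mice and of 0.468 to 0.530 in CD mice, so the genotypes matched the labels. All 10 cortical neuron markers were present, and their summed level ranged from 383641 to 436294 normalized counts. Oligodendrocyte markers summed to 79642 to 219840. Of these, 7 of 9 were lower in VERCUR-WT than in VEH-WT (median -0.46) and 7 of 9 in VERCUR-CD than in VEH-CD (median -0.08). Markers of the striatum, which lies under the cortex, were all 7 present and varied within every group. Their sums were 17981 to 36495 in VEH-WT, 17454 to 38185 in VEH-CD, 9842 to 40518 in VERCUR-WT and 10503 to 28720 in VERCUR-CD. All 7 were lower in VERCUR-WT than in VEH-WT (median -0.56) and in VERCUR-CD than in VEH-CD (median -0.62). Sums of astrocyte (83391 to 108058), microglia (16814 to 21701) and endothelial and mural markers (11945 to 16141) moved less. Red blood cell markers summed to 17575 to 35997 over the mice, with 5 of 5 higher in VEH-CD than in VEH-WT (median 0.36) and 5 of 5 higher in VERCUR-WT than in VEH-WT (median 0.20). Meningeal fibroblast markers summed to 3060 to 5550, with 5 of 6 lower in VEH-CD than in VEH-WT (median -0.18), and choroid plexus markers to 103 to 169. limma called 0 of these markers in any comparison, and their part in the results was not tested. In bulk tissue, fewer cells that express a gene and less RNA per cell cannot be told apart. Differences are log2 fold changes of normalized count + 1 from limma, a linear model fitted to all 12 mice and 17111 genes, with their standard error (SE), and all 8 genes of the set passed the filter of a mean of at least 10. A gene was called at an adjusted p under 0.05 with a level over 25% higher or lower.

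Per kilobase of exon, and averaged over the 12 mice, Gadd45g (423 normalized counts per kb), Ier2 (396) and Gadd45b (391) were the highest of the set. Btg2 followed at 325, then Ppp1r15a at 284, Cdkn1a at 282 and Btg1 at 243, and Gadd45a was the lowest at 177. The ranges over mice of neighbours in this order overlapped. Those of the highest and the lowest gene met only at their ends: Gadd45g ran from 313 to 529 per kb and Gadd45a from 112 to 316. The genes differed more in how far they moved from mouse to mouse. The highest mouse had 4.61 times the level of the lowest for Btg2, 3.33 times for Ier2 and 2.83 times for Gadd45a, but 1.32 times for Ppp1r15a and 1.30 times for Btg1.

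Gadd45a (ENSMUSG00000036390, chromosome 6, 67035096 to 67037457, minus strand), a stress gene that p53 is known to induce, showed the largest gap between vehicle groups. Its normalized counts were 397.9, 557.68 and 421.54 in VEH-WT mice and 209.09, 264.9 and 227.59 in VEH-CD. In co-treated mice they were 289.62, 328.8 and 332.91 in VERCUR-WT and 297.52, 228.42 and 197.29 in VERCUR-CD. Every VEH-CD mouse lay below every VEH-WT mouse, and the VERCUR-WT mice lay in the gap between them. VERCUR-CD overlapped VERCUR-WT by 1 mouse, the first VERCUR-CD mouse, and covered the range of VEH-CD on both sides. VEH-CD differed from VEH-WT by -0.96 (SE 0.16), a fold of 0.514, and VERCUR-CD from VERCUR-WT by -0.41 (SE 0.16). In CD mice the co-treatment difference was 0.03 (SE 0.16), against -0.52 (SE 0.16) in WT mice, where the groups also did not overlap. The annotation places E230016M11Rik, a noncoding RNA, on the opposite strand across the start of Gadd45a. Its level was 38.24 to 59.41 normalized counts over the 12 mice, with the highest in VEH-CD 1. Whether the counting used strand is not given in the sources used here.

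Gadd45b (ENSMUSG00000015312, chromosome 10, 80930073 to 80932204, plus strand) is known in neurons as an activity-induced gene tied to DNA demethylation. Its normalized counts were 682.6, 954.87 and 811.78 in VEH-WT mice and 427.32, 494.48 and 609.71 in VEH-CD. The co-treated groups had 613.66, 470.51 and 690.83 in VERCUR-WT and 650, 428.07 and 614.96 in VERCUR-CD. The vehicle groups were separate, while the co-treated groups covered nearly the same range as each other, from about the lowest VEH-CD mouse to just above the lowest VEH-WT mouse. The difference of VEH-CD from VEH-WT was -0.68 (SE 0.19), and that of VERCUR-CD from VERCUR-WT was -0.07 (SE 0.19).

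Gadd45g (ENSMUSG00000021453, chromosome 13, 51846678 to 51848468, plus strand), the last member of the family, did not follow the genotype. It had 449.46, 585.39 and 604.06 normalized counts in VEH-WT mice and 436.46, 437.97 and 620.5 in VEH-CD, whose mouse 3 was the highest of all 12. In VERCUR-WT it had 542.44, 379.74 and 586.48, and in VERCUR-CD 476.38, 366.91 and 464.83. All 4 groups overlapped, and the differences lay between -0.19 and -0.13 in the 4 comparisons of groups (SE 0.19 each).

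Cdkn1a (ENSMUSG00000023067, chromosome 17, 29090976 to 29100727, plus strand) encodes p21, the cyclin-dependent kinase inhibitor through which p53 arrests the cycle. It had 1046.87, 1626.86 and 1107.29 normalized counts in VEH-WT mice and 743.81, 960.71 and 904.39 in VEH-CD. The second VEH-WT mouse stood well above the others, and the vehicle groups were separate also without it. VERCUR-WT had 859.36, 1170.71 and 933.19, and VERCUR-CD had 976.32, 752.71 and 930.62, so that the co-treated groups overlapped. The vehicle difference was -0.51 (SE 0.17), or -0.32 without VEH-WT 2, and the co-treated difference was -0.15 (SE 0.17).

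**Figure D2:**
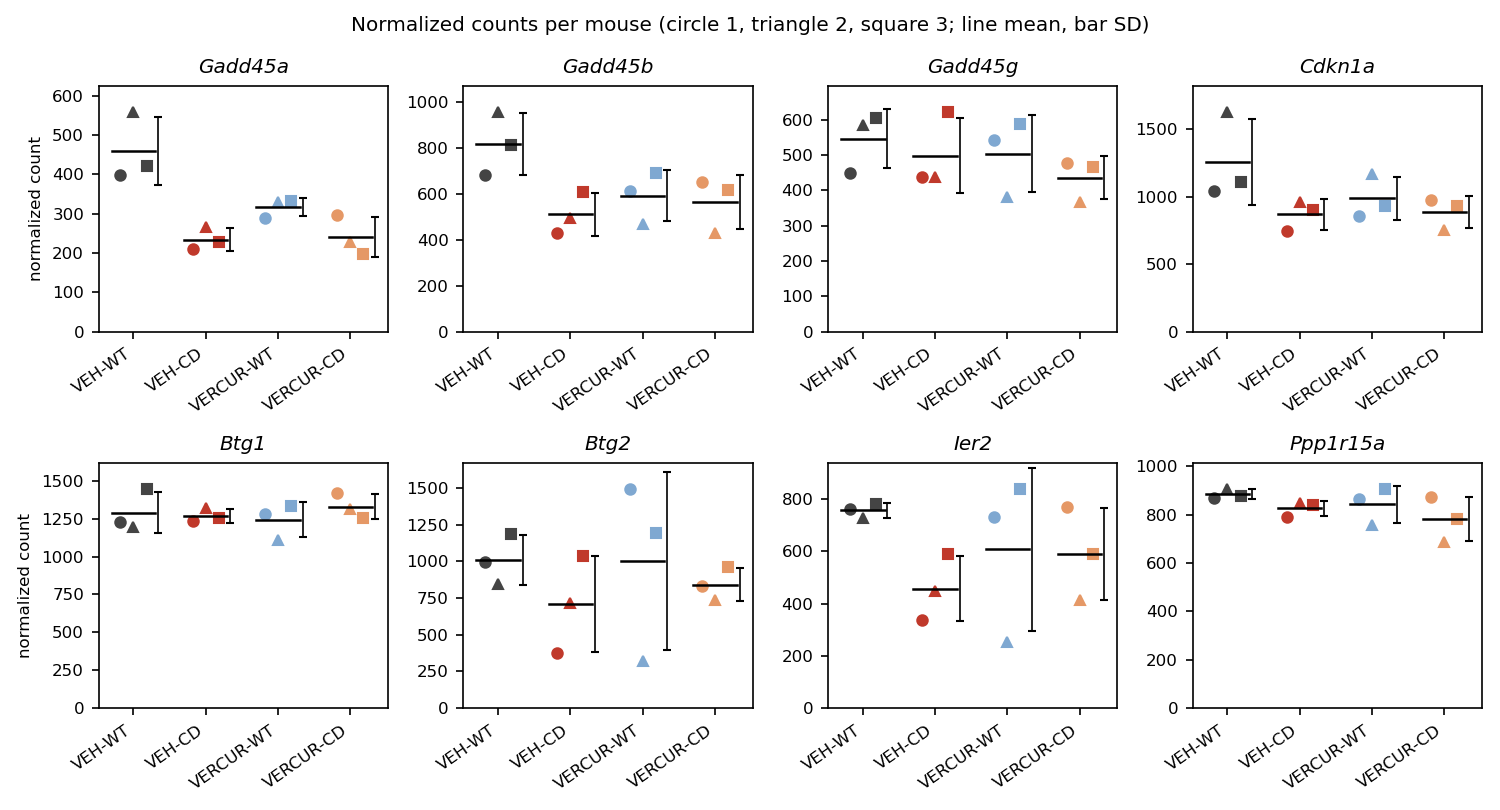
Normalized counts of each gene in each mouse on linear axes from 0, by group, with circles, triangles and squares for mice 1, 2 and 3, a line at the mean and a bar of 1 SD (n = 3). Gadd45a, Gadd45b, Cdkn1a, Ier2 and Ppp1r15a have no VEH-CD mouse above a VEH-WT mouse. Btg2 and Ier2 have a single low mouse in VERCUR-WT and are spread out in VEH-CD.

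Btg2 (ENSMUSG00000020423, chromosome 1, 134075170 to 134079120, minus strand), an antiproliferative gene whose product recruits the CCR4-NOT deadenylase, was the most variable of the set. It had 994.19, 842.87 and 1183.78 normalized counts in VEH-WT mice and 378.19, 719.65 and 1034.96 in VEH-CD. In VERCUR-WT it had 1494.39, 324.17 and 1191.06, so that 1 group held both the highest and the lowest mouse of the 12. VERCUR-CD was the tightest group, at 833.23, 734.73 and 958.52. The vehicle difference of -0.60 had an SE of 0.47 and moved to -0.21 without VEH-CD 1.

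Ier2 (ENSMUSG00000053560, chromosome 8, 84661331 to 84662852, minus strand), an immediate early gene with a single exon, had the same low mice. Its normalized counts were 761.06, 727.41 and 781.36 in VEH-WT mice and 337.05, 447.68 and 588.15 in VEH-CD. VERCUR-WT had 732.36, 251.92 and 839.18, and VERCUR-CD had 768.66, 414.58 and 588.01. The VEH-WT mice lay close together and above all VEH-CD mice, and the second VERCUR-WT mouse was the lowest of the 12, as for Btg2. The vehicle difference was -0.76 (SE 0.37). Between VERCUR-WT and VEH-WT it was -0.49 (SE 0.37), and 0.05 without VERCUR-WT 2. RefSeq gave no promoter window for Ier2 here.

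Btg1 (ENSMUSG00000036478, chromosome 10, 96617006 to 96622809, plus strand), the paralogue of Btg2, was nearly flat. Its 12 mice had 1112.36 to 1447.13 normalized counts, with means of 1290 ± 137 in VEH-WT, 1270 ± 47.2 in VEH-CD, 1243 ± 117 in VERCUR-WT and 1329 ± 84.1 in VERCUR-CD (SD, n = 3 each). All groups overlapped, and no difference between groups was beyond 0.10 in either direction (SE 0.09).

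Ppp1r15a (ENSMUSG00000040435, chromosome 7, 45522916 to 45526268, minus strand) encodes GADD34, which directs protein phosphatase 1 to eIF2alpha and so ends the integrated stress response. It had 867.54, 906.37 and 876.97 normalized counts in VEH-WT mice and 790.65, 846.8 and 840.9 in VEH-CD. The groups did not overlap, yet the difference was small, at -0.10 (SE 0.09). Co-treated mice ranged from 687.96 to 906.45 with overlapping groups. The end of Ppp1r15a lies under Tulp2 on the opposite strand, and an unnamed transcript model, AC167363.2, lies opposite Cdkn1a. Neither was analysed here.

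Between VEH-CD and VEH-WT, 8 of the 8 genes had a lower mean log2 level in VEH-CD, with a median difference of -0.56, against a median of -0.00 over all genes, of which 50.7% were lower. In 5 of the 8 (Gadd45a, Gadd45b, Cdkn1a, Ier2 and Ppp1r15a) the groups did not overlap, and 11.4% of all genes tested were lower without overlap, with 9.28% higher. The limits of a call were passed by 1 gene of the set, Gadd45a, and by 0.257% of all genes (44 genes, 35 of them lower). The set was selected on these values, so nothing is read from its counts or from this call. Over the fits that left out 1 mouse, the difference of Gadd45a ran from -1.06 to -0.81.

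Between VERCUR-CD and VERCUR-WT, 5 of the 8 had a lower mean log2 level and 3 a higher (Btg1, Btg2 and Ier2), with a median of -0.09. By mean normalized count, Btg2 (842 against 1003) and Ier2 (590 against 608) were lower in VERCUR-CD, so their direction depended on the scale. The median log2 difference was -0.30 without VERCUR-WT 2 and 0.04 without VERCUR-CD 2, so its direction turned with 1 mouse. None was called, where 0.146% of all genes were (25 genes). No gene of the set was lower without overlap, where 3.83% of all genes were, nor higher, where 3.91% were.

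VERCUR-CD lay close to VEH-CD for most of the set. The median difference was 0.05, with 6 higher and 2 lower (Gadd45g and Ppp1r15a). The largest were those of Ier2 at 0.36 (SE 0.37) and Btg2 at 0.35 (SE 0.47). The value of Btg2 ran from -0.04 without VEH-CD 1 to 0.68 without VEH-CD 3, and that of Ier2 from 0.15 without VERCUR-CD 1 to 0.59 without VERCUR-CD 2. The median was -0.05 without VEH-CD 1, and all 8 genes overlapped between the groups, where 4.63% of all genes were lower and 3.71% higher without overlap. In limma with Benjamini-Hochberg adjustment, 0 of all genes were called (0%), and 605 (3.54%) had an unadjusted p under 0.05.

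VERCUR-WT was lower than VEH-WT for 8 of the 8 genes, with a median of -0.30. It moved to 0.013 without VERCUR-WT 2, the mouse with the lowest Btg2 and Ier2. Gadd45a was the single gene of the set whose groups did not overlap, and 5.25% of all genes were lower and 4.48% higher without overlap. Here limma also called 0 of all genes (0%), and 893 (5.22%) had an unadjusted p under 0.05. The comparisons share groups, VEH-WT among them, so their values are not separate pieces of evidence.

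The interaction, the genotype difference in co-treated mice minus that in vehicle mice, was above 0 for 6 of the 8 genes. It was 0.85 (SE 0.53) for Ier2, 0.61 (SE 0.67) for Btg2, 0.60 (SE 0.27) for Gadd45b and 0.55 (SE 0.23) for Gadd45a. With single mice left out, the value of Btg2 ran from -0.07 (without VERCUR-WT 2) to 1.03 (without VERCUR-WT 1) and that of Ier2 from 0.31 (without VERCUR-WT 2) to 1.17 (without VERCUR-WT 3). For Gadd45g, at -0.05 (SE 0.27), and Ppp1r15a, at -0.01 (SE 0.13), it was near 0. The median was 0.46, and 0.061 without VEH-CD 1 and VERCUR-WT 2. limma called 0 of all genes for the interaction (0%), and 1035 (6.05%) had an unadjusted p under 0.05.

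**Figure D3:**
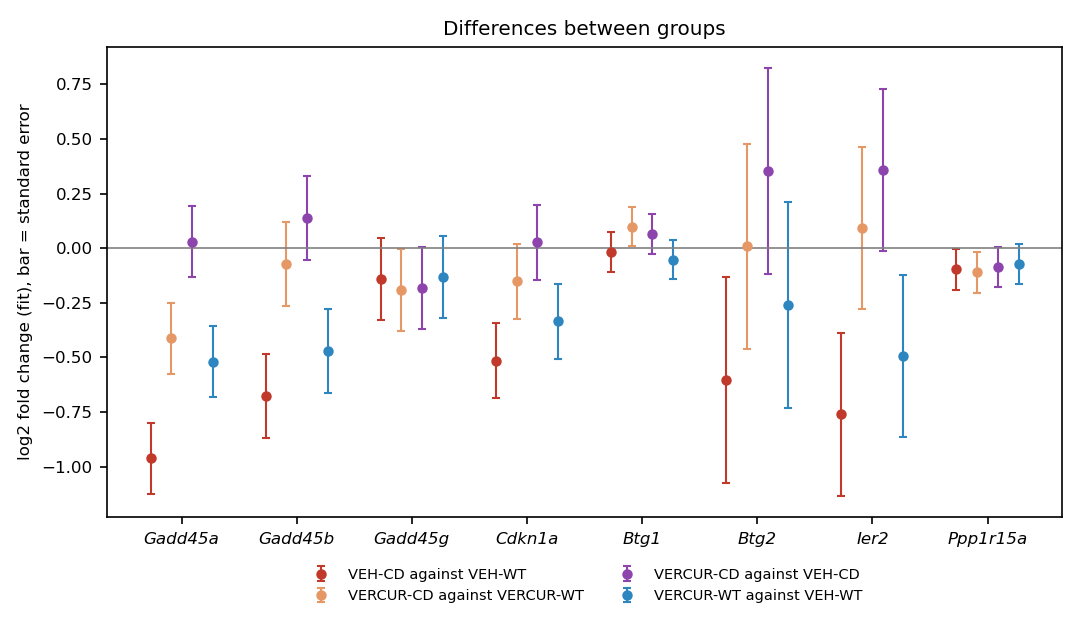
Log2 fold changes of each gene in 4 comparisons of groups, from the limma fit, with bars of 1 standard error. Gadd45a has the lowest value, -0.96 for VEH-CD against VEH-WT, and Btg1 and Ppp1r15a stay close to 0 in each comparison.

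Within groups, the spread of the log2 level between mice separated the set more than its means did. The within-group SD was 0.72 for Btg2 and 0.56 for Ier2, higher than in 98.4% and 96.8% of all genes tested. It was 0.28 for Gadd45b, 0.27 for Gadd45g, 0.25 for Cdkn1a and 0.22 for Gadd45a, where the median gene had 0.14. Btg1 and Ppp1r15a had 0.11 each, below the median gene.

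Some genes of the set were high and low in the same mice, and others were not. Gadd45a and Cdkn1a followed each other, with Pearson's r of 0.85 and Spearman's rho of 0.80 over the 12 mice. Both were highest in VEH-WT 2, where Btg2 and Ier2 were the lowest of their group. With group means subtracted r was 0.70, and over 10 mice, without the pair farthest from the median of Gadd45a, it was 0.81. Btg2 and Ier2 gave r of 0.90 (rho 0.79), 0.90 with group means subtracted and 0.65 without the pair of mice farthest from the median of Btg2. Gadd45b went with Gadd45g (r 0.78, and 0.91 with group means subtracted) and with Ier2 (0.82 and 0.79). It also followed Gadd45a (r 0.75) and Cdkn1a (0.72), less so with group means subtracted (0.37 and 0.43), so it belonged to neither pair alone. Ppp1r15a went with Gadd45b (r 0.79, and 0.86 with group means subtracted), Gadd45g (0.79 and 0.72) and Ier2 (0.75 and 0.86). With Gadd45a it had r of 0.61 (0.44 with group means subtracted), and with Btg2 0.55 (0.60). Between Gadd45a and Btg2, r was 0.21, and -0.13 with group means subtracted. Cdkn1a and Btg2 gave 0.03 and -0.27. In all, 26 of the 28 pairs had r above 0, and 24 with group means subtracted. These are descriptions of 12 libraries that share the same dissection and normalization for every gene, and no p is given.

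**Figure D4:**
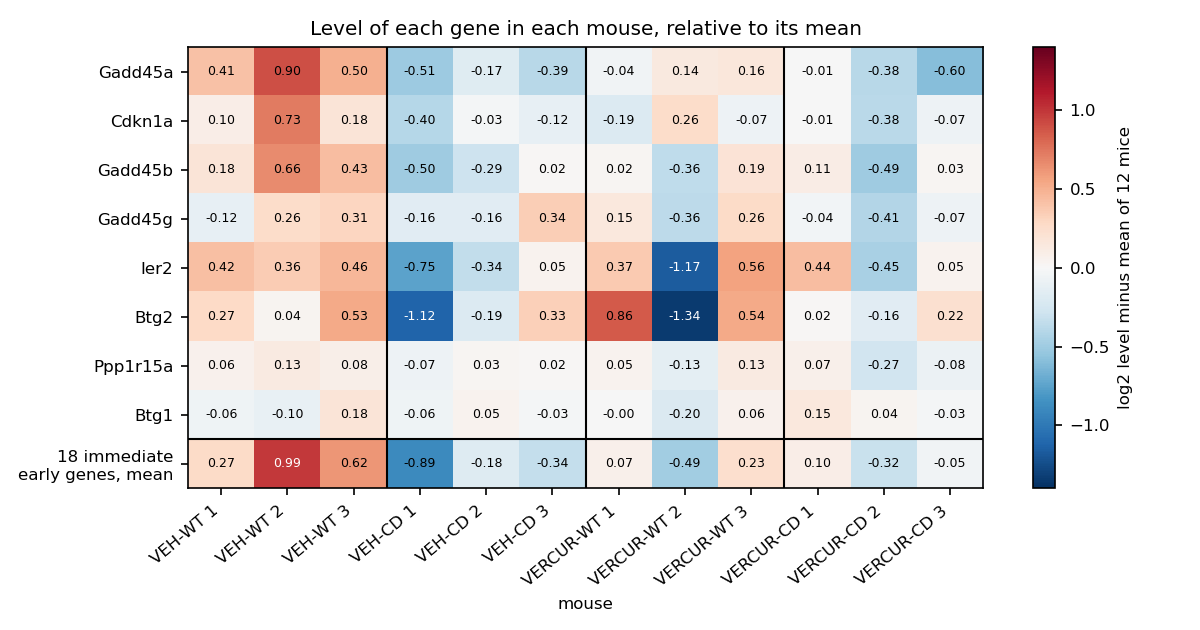
Log2 level of each gene in each mouse minus its mean over the 12 mice (red higher, blue lower), with the mean of 18 immediate early genes in the bottom row. VEH-WT 2 is highest for Gadd45a (0.90) and Cdkn1a (0.73), and VERCUR-WT 2 is lowest for Btg2 (-1.34) and Ier2 (-1.17).

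**Figure D5:**
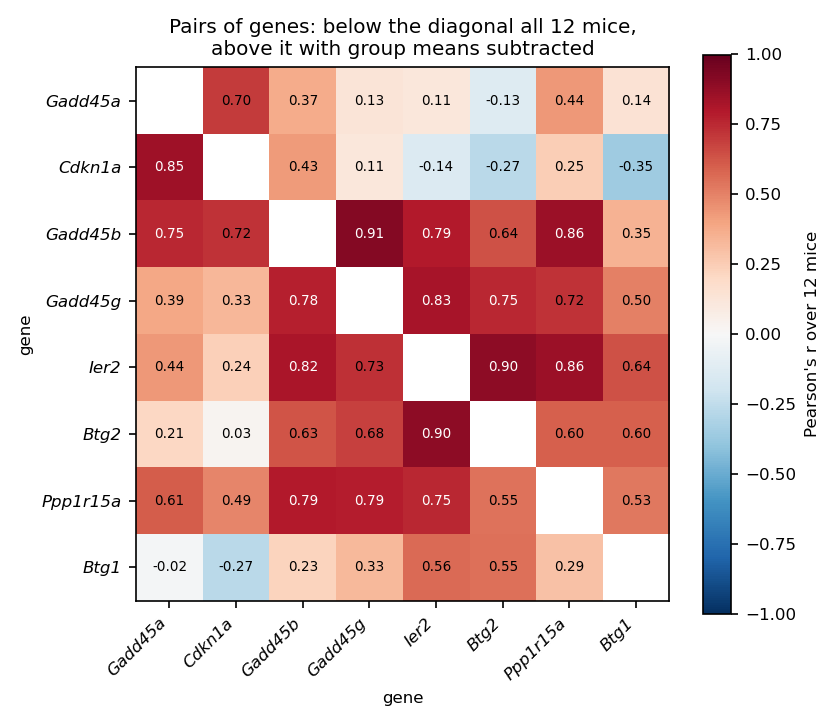
Pearson's r of the log2 levels for each pair of genes, over the 12 mice below the diagonal and with group means subtracted above it. Below the diagonal, Gadd45a with Cdkn1a reaches 0.85 and the pairs among Gadd45b, Gadd45g, Ier2, Btg2 and Ppp1r15a lie from 0.55 to 0.90. Gadd45b also has 0.75 with Gadd45a and 0.72 with Cdkn1a, and Ppp1r15a has 0.61 with Gadd45a.

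Over the 12 mice, the genes outside the set most like the mean of its 8 log2 levels were Arl4d (r 0.95), Cyr61 (0.95), Nr4a1 (0.93), Arc (0.93), Fos (0.92), Fgf18 (0.92), Junb (0.92), Apold1 (0.91), Sik1 (0.91) and Egr2 (0.90). With group means subtracted the order was Arc (0.96), 1700016P03Rik (0.96), Arl4d (0.95), Nr4a1 (0.94), Junb (0.94), Insm1 (0.92), Dusp1 (0.92), Senp1 (0.92), Cyr61 (0.92) and Sik1 (0.91). The single genes had other neighbours. Taf12 (0.98), Chtf8 (0.94) and Egr4 (0.94) were most like Gadd45a, and Dnajb5 (0.95), Sec61a1 (0.95) and Slc20a1 (0.95) most like Cdkn1a. Gadd45b was most like Arl4d (0.95), Sertad1 (0.95) and Sik1 (0.94). Dusp1, a phosphatase of MAP kinases, led for both Ier2 (0.96) and Btg2 (0.93), followed by Insm1 (0.95) and Junb (0.94) for Ier2 and by Mex3d (0.91) and Npas4 (0.89) for Btg2. For Gadd45g the highest was Alkbh4 (0.88), for Btg1 B3gnt5 (0.90) and for Ppp1r15a Ppef2 (0.91).

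The immediate early genes, 18 transcription factors and effectors such as Fos, Egr1, Nr4a1 and Arc, moved alongside. Their summed normalized counts were 84574, 134164 and 103926 in VEH-WT mice and 34672, 60765 and 48703 in VEH-CD. They were 69818, 52838 and 76553 in VERCUR-WT and 72460, 53552 and 62071 in VERCUR-CD. The highest mouse was VEH-WT 2, as for Gadd45a, Gadd45b and Cdkn1a, and the lowest VEH-CD 1. Between VEH-CD and VEH-WT 18 of the 18 were lower, with a median of -1.12, and 14 had an unadjusted p under 0.05, but 0 were called (limma, Benjamini-Hochberg). Of all genes, 50.7% were lower, 11.8% had such a p and 0.257% were called. Between VERCUR-WT and VEH-WT, which shares the VEH-WT mice, 18 of 18 were lower (median -0.71). Between VERCUR-CD and VEH-CD 17 of 18 were higher (median 0.28), and the interaction was above 0 for 18 of 18, with 12 at an unadjusted p under 0.05 and 0 called (limma, Benjamini-Hochberg). Of all genes, 6.05% had such a p for the interaction. Of 14 glucocorticoid-responsive genes, such as Fkbp5 and Sgk1, 11 were lower in VEH-CD (median -0.39), 7 of them at an unadjusted p under 0.05, and 0 were called. The summed striatum markers also varied from mouse to mouse, as given above. The part of these genes in the levels of the set was not tested.

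The pathways around the set were read from 6 lists with 95 other genes, of which 92 were tested. In limma with Benjamini-Hochberg adjustment 0 of the 92 were called in any of the 5 comparisons. Between VEH-CD and VEH-WT, 14 were lower and 1 higher at an unadjusted p under 0.05, 16.3% of the 92, against 11.8% of all genes. In either direction, the number was 5 between VERCUR-CD and VERCUR-WT (5.43% of the 92, against 4.1% of all genes). Between VERCUR-CD and VEH-CD it was also 5 (5.43% against 3.54%). It was 9 between VERCUR-WT and VEH-WT (9.78% against 5.22%) and 12 for the interaction (13.0% against 6.05%). The 2 genes with the smallest p of each list between VEH-CD and VEH-WT are named for each.

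Among 17 partners of GADD45 in signalling, repair and demethylation, 14 had a lower value in VEH-CD, with a median of -0.07. Tet3, an enzyme that oxidizes 5-methylcytosine, had 2483 ± 493 normalized counts in VEH-WT mice and 1577 ± 210 in VEH-CD mice (SD, n = 3 each), a difference of -0.64 (SE 0.16, adjusted p = 0.146, limma). Its relative Tet2 differed by -0.41 (SE 0.15, adjusted p = 0.320, limma). Neither passed the threshold, and both were TET enzymes.

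Of 22 genes of the p53 pathway 21 were tested, without Eda2r, and 16 had a lower value in VEH-CD, with a median of -0.05. At an unadjusted p under 0.05, 5 were lower and 0 higher. Their summed normalized counts were 37419 to 39348 in VEH-WT and 34070 to 36450 in VEH-CD, which did not overlap. This was not particular to the p53 list. Sums of the integrated stress response list (36009 to 36851 against 32821 to 34404) did not overlap either. The same held for cyclins, kinases and inhibitors (17494 to 18955 against 16303 to 16664). In that list 9 of 16 genes were higher in VEH-CD, while Ccnd2 went from a mean of 4860 to 3244. Sums of the other pathway lists overlapped. Those of the immediate early genes (84574 to 134164 against 34672 to 60765) did not, nor did the glucocorticoid-responsive genes (34333 to 44984 against 28451 to 33302). Zmat3, an RNA-binding p53 target, had 6145 ± 65.9 normalized counts in VEH-WT mice and 5065 ± 291 in VEH-CD mice (SD, n = 3 each), a difference of -0.28 (SE 0.08, adjusted p = 0.198, limma). The kinase gene Plk3 differed by -0.57 (SE 0.18, adjusted p = 0.261, limma).

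Of the cyclins, kinases and inhibitors around p21, Ccnd2 came closest to the threshold of all 92, with 4860 ± 969 normalized counts in VEH-WT mice and 3244 ± 279 in VEH-CD mice (SD, n = 3 each). It encodes cyclin D2 and differed by -0.57 (SE 0.12, adjusted p = 0.0709, limma). Ccnd3, for cyclin D3, differed by -0.24 (SE 0.08, adjusted p = 0.279, limma). The list had a median of 0.01 with 7 of 16 genes tested lower, and Cdkn2a was not in the test.

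In the integrated stress response, on which the product of Ppp1r15a acts, 13 of 20 genes were lower in VEH-CD with a median of -0.11. Ppp1r15b, the constitutive counterpart of Ppp1r15a, had 3159 ± 198 normalized counts in VEH-WT mice and 2555 ± 244 in VEH-CD mice (SD, n = 3 each) and differed by -0.31 (SE 0.09, adjusted p = 0.214, limma). Ddit4, an inhibitor of mTORC1 signalling, differed by -0.56 (SE 0.17, adjusted p = 0.223, limma).

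In the Btg and Tob family and its partners in mRNA decay, 5 of the 9 genes tested were lower and 4 higher (median -0.02), with Hoxb9 not in the test. Pabpc1, the poly(A)-binding protein, was at 9314 ± 277 in VEH-WT and 10439 ± 414 normalized counts in VEH-CD (SD, n = 3 each), a difference of 0.16 (SE 0.05, adjusted p = 0.226, limma). Tob2, a relative of Btg2, differed by -0.42 (SE 0.20, adjusted p = 0.432, limma). Of the 9 relatives and partners of Ppp1r15a and Ier2, 5 were lower (median -0.01). Ier5l, a relative of Ier2, had 1942 ± 238 normalized counts in VEH-WT mice and 1214 ± 71.1 in VEH-CD mice (SD, n = 3 each), a difference of -0.67 (SE 0.17, adjusted p = 0.159, limma). Smarcb1, a subunit of the SWI/SNF remodeler, differed by 0.13 (SE 0.07, adjusted p = 0.497, limma).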

How the data were processed

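RNA of frontal cortex from 12 mice was sequenced, 3 in each of 4 groups, which were taken from the sample labels. With STAR 2.5.3a, read pairs were mapped by the authors to GRCm38, and normalized counts per gene and mouse were deposited. The counting program, the annotation and the normalization are not given in the sources used here. The deposited values are whole reads divided by a factor per sample (100% of low values were whole multiples of 1 step, tolerance 0.0075). The steps served only to describe depth, because decimal commas kept the values from being taken as counts. A further 2 deposited tables, with levels relative to VEH-WT of genes the authors chose, were not used.

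limma 3.58.1 in R 4.3.3, with an intensity trend, was fitted to log2(normalized count + 1) of the 17111 genes with a mean of at least 10, with 4 group means and 8 residual degrees of freedom. Two-sided p-values had Benjamini-Hochberg adjustment across all 17111 genes. The pseudocount of 1 understates changes of low genes. The fit was tested on simulated data. Gene positions and exon lengths are those of GENCODE M21 (17181 of 17202 genes found) and promoters those of RefSeq (GRCm38.p6).

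The genes of the set, the lists and the motifs were chosen with earlier results of these data known. All 8 genes are described. From each list, called genes were to be named, and where none was called the 2 with the smallest p between VEH-CD and VEH-WT. For likeness, the 10 genes with the highest Pearson's r to the mean of the set and the 3 most alike per gene were kept, and only the most alike is printed for Gadd45g, Btg1 and Ppp1r15a. The alternatives were other pseudocounts, filters, normalizations and fits, a replicate block and the removal of single mice. With 3 mice against 3 no exact permutation test can reach 0.05, so none was run for single genes.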

Additional observations from a re-analysis of the deposited data

How the results depend on the processing

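The difference of Gadd45a between VEH-CD and VEH-WT ran from -1.06 to -0.81 over the settings run. Its vehicle groups did not overlap, so leaving out mice could not have turned its direction. Gadd45a was not called without the intensity trend, nor without VEH-WT 2, VEH-WT 3, VEH-CD 1 or VEH-CD 3. Moves of single differences by less than 1 SD between mice of a group, up to 0.72 for Btg2, are within the spread: 869 differences moved by less than that and 3 by more. For medians (SD 0.239) and counts (1.5 times), 304 values were within these limits and 23 beyond. Many settings could not move a difference or median at all, such as leaving out a mouse of a group not compared or dropping the intensity trend. A full SD is also a wide limit for the removal of 1 mouse of 3, so these numbers are no measure of stability. Leaving out 1 mouse, the genes called between VEH-CD and VEH-WT ran from 24 (with VEH-CD 1, VEH-CD 3 or VEH-WT 2 left out) to 71 (without VERCUR-CD 2), with 28 without VEH-WT 3. The median of the set there ran from -0.68 to -0.31 (the latter without VEH-CD 1), and 0 to 1 genes of the set passed the limits of a call. Between VERCUR-CD and VEH-CD, 0 to 2 genes were called, and between VERCUR-WT and VEH-WT 0 to 3, where the median of the set ran from -0.41 to 0.013 (without VERCUR-WT 2). The median interaction ran from 0.17 to 0.55. Btg2 between VERCUR-WT and VEH-WT ran from -0.68 to 0.42.

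Without both VEH-CD 1 and VERCUR-WT 2, chosen after seeing the data as the mice with the lowest Btg2 and Ier2, 23 genes, 0 of them in the set, were called between VEH-CD and VEH-WT, with a median of -0.31. The medians were then 0.013 between VERCUR-WT and VEH-WT and 0.061 for the interaction. Without the intensity trend, 0 genes of the set and 30 of all genes were called. The other settings were pseudocounts of 0.1 and 5, no filter, a mean of at least 50, quantile normalization, centring on the median log2 ratio and a fit of only the groups compared. Since the set was selected on these values, its counts of calls say nothing of stability. The replicate numbers did not pair the mice (r of same-numbered mice -0.35 to 0.27, and 1 of 12 mice closest to its own number). With a replicate block, 40 genes were called between VEH-CD and VEH-WT, 26 between VERCUR-CD and VERCUR-WT, and 1 of the set. Count models on recovered reads, planned as alternatives, were not run. The cause of these changes was not tested beyond the removal of the mice named.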
